A study of Mus musculus with 6 samples.

Results

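Solute carriers are the large class of membrane proteins that move sugars, amino acids, ions, metals and metabolites across the cell surface and organelle membranes, and their genes carry symbols that begin with Slc and a family number. The genes described here were all those on the array whose symbol is Slc followed by a digit and whose probe set, a group of short probes that reports 1 transcript, was annotated to 1 gene. Slc40a1, Slc11a1 and Slc11a2, which carry iron and other metals, were left out, and of several probe sets for 1 gene the one brightest on average across the 6 arrays was used. This gave 259 genes of 47 families, of 12393 named genes measured in all. For 3 of them, Slc4a1ap, Slc9a3r1 and Slc9a3r2, the symbol refers to a transporter that the protein binds, so they are not carriers themselves.

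The samples came from testes of transgenic mice named CD4HAglo, in which part of the promoter of the germ cell gene Stra8 drives a surface protein with domains of human CD4. Both groups carry this transgene, and strain, age and any other allele are not given in the sources used here. In 3 samples titled spermatogonial stem cells, the germ cells that sustain sperm production, cells positive for the marker were taken out with magnetic beads, with 50 males pooled for each preparation. The other 3 samples are titled total testicular cells, while their source text names marker-negative cells, so the make-up of this group is uncertain. The header of every array, those of this group included, names spermatogonial stem cell RNA as the sample type, so the groups here rest on the titles. Each sample was hybridised to 1 Affymetrix Mouse430A_2 array, and the comparison asks which transcripts differ in level between the stem cell preparations and the samples titled total testicular cells.

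In the seminiferous tubule, germ cells past early meiosis, unlike spermatogonia, lie behind a barrier formed by Sertoli cells. Much of the fuel and most of the building blocks of these later cells therefore pass through carriers of the Sertoli cell and the germ cell. Sertoli cells take up glucose and release lactate, which meiotic and haploid germ cells burn. Several amino acid exchangers of the Slc7 family work as pairs, in which a light chain that carries the substrate is bound to the heavy chain encoded by Slc3a2.

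Values are on the log2 scale, on which 1 unit is a 2-fold difference, and every difference is stem cells minus total testicular cells. A gene is said to have risen or fallen where its Benjamini-Hochberg adjusted p over all probe sets, from the limma fit, was under 0.05. Background was set at 2.37, under which 95% of the values of 27 probe sets for bacterial transcripts lay, and it was passed by 71.3% to 75% of probe sets in stem cells and 71.3% to 72.3% in total testicular cells. Stem cell replicate 1 was brighter on the hybridisation control probe sets, at 8.96, against 8.45 and 8.38 for stem cell replicates 2 and 3 and 8.37 to 8.51 for the total testicular cell arrays. Macrophage markers were higher on the stem cell arrays: 11 of 13 rose and 0 fell, and their summed level on the log2 scale was 11.45 to 13.37 on stem cell arrays and 7.69 to 8.32 on the others. Defining macrophage markers such as Csf1r (a mean of 9.98 on stem cell arrays and 5.22 on total testicular cell arrays) and Adgre1 (6.08 and 3.36) lay above background in both groups, and only Fcgr1 lay under it, on the total testicular cell arrays. For 5 measured Leydig cell markers, 0 passed, the median difference was 1.85, and the summed level was 9.60 to 11.65 on stem cell arrays and 8.01 to 9.26 on the others. Of 9 Sertoli cell markers 2 rose, Clu by 2.02 (limma adjusted p = 0.0234) and Ctsl by 1.59 (limma adjusted p = 0.0408), and 0 fell. Their median difference was 0.27, and the summed level was 10.25 to 11.62 on stem cell arrays and 9.16 to 9.33 on the others. Of 8 markers of undifferentiated spermatogonia, the labelled cell type, 0 passed by limma (median difference −0.14). Their means included 2.55 for Gfra1 on stem cell arrays and 2.72 on total testicular cell arrays, and 2.52 and 2.95 for Zbtb16, so both lay close to background in each group. Id4 was bright, at 7.45 in stem cells and 8.0 in total testicular cells. It was lower in stem cells without overlap of the groups (−0.55, limma adjusted p = 0.232), and its 3 probe sets gave −0.73 to −0.47. On the probe sets used, only Foxo1 (3.45 and 2.96, without overlap of the groups) and Sall4 (2.43 and 2.32) were higher in stem cells. The 4 probe sets of Foxo1 gave 0.01 to 0.49, and the 2 of Sall4 gave −0.04 to 0.11. A second probe set of Zbtb16 differed by 0.14. Of 5 measured meiotic markers, 0 passed (median −0.05), and the summed level was 9.607 to 9.785 on stem cell arrays and 9.742 to 9.97 on the others. Of 8 spermatid markers, 0 passed (median −0.17). Their summed level was 15.07 to 15.36 on stem cell arrays and 15.14 to 15.42 on the others, so spermatid transcripts were bright in both groups. Because these are bulk samples, more cells of a type and more RNA per cell cannot be told apart, here or below.

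Promoter sequences are shown for the carrier gene that fell and for the 3 genes with the largest positive differences, which did not pass the threshold. For Slc7a5, the carrier gene that rose, no promoter was found, so none is shown. Each is the 250 bases before the RefSeq start, on GRCm38.p6, 5′ to 3′ in the gene's orientation. For Slc12a5, on the plus strand, the window of the second of its starts in the table is chr2:164967738-164967987. The window of its other start, chr2:164960596-164960845, holds none of the motifs searched and is not printed. The Slc38a2 window is chr15:96699729-96699978 on the minus strand, that of Slc25a5 is chrX:36795347-36795596 on the plus strand, and that of Slc3a2 is chr19:8713898-8714147 on the minus strand. Capitals mark matches on either strand to GAGGAA, a core bound by PU.1 and other ETS factors, or to CACGTG, the E box.
Slc12a5: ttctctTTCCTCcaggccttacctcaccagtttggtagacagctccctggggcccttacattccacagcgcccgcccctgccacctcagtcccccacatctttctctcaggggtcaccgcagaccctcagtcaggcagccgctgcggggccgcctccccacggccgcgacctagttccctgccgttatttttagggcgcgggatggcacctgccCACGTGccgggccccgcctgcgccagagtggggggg
Slc38a2: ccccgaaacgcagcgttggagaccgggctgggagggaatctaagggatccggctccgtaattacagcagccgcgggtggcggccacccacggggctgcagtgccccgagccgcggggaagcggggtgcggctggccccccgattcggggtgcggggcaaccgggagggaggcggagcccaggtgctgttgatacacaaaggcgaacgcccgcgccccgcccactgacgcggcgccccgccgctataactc
Slc25a5: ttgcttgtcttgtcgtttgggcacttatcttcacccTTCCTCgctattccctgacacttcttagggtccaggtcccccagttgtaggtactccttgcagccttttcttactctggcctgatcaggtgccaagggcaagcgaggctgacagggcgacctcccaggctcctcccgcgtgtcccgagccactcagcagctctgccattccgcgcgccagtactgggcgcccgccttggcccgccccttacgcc
Slc3a2: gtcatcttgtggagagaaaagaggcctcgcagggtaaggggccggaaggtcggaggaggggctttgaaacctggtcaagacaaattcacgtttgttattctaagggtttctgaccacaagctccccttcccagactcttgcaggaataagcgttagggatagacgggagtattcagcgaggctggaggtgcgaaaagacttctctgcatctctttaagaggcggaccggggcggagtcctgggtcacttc

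The promoters of the carrier genes were searched on both strands for GAGGAA, the E box CACGTG, the amino acid response element TGATGNAA and the cyclic AMP response element TGACGTCA. A promoter was found for 205 of the 259 genes, in 273 windows. GAGGAA stood in 16.8% of these windows and in 23.3% of all 32851 promoter windows, and CACGTG in 9.89% and 6.02%. TGATGNAA stood in 2.20% of the carrier windows and 3.45% of all windows, and TGACGTCA in 0.733% and 1.55%. The median GC content was 58.4% in the carrier windows and 52.4% in all, and its part in these shares was not tested. Among the windows shown, Slc12a5 holds GAGGAA (as its reverse complement) 244 bases before the start and CACGTG 36 bases before it, Slc25a5 holds GAGGAA in the same orientation 214 bases before the start, and those of Slc38a2 and Slc3a2 hold none of the 4 motifs. The matches in these windows do not overlap one another.

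Across the 259 carrier genes 1 rose and 1 fell. Slc7a5, the light chain of an exchanger for large neutral amino acids, was 2.33-fold higher in stem cells, and Slc12a5, a potassium-chloride cotransporter, was 2.03-fold lower. These are 0.772% of the carrier genes, against 1.77% of all 12393 genes called. At an unadjusted p under 0.05, 34 carrier genes were higher and 33 lower, which is 13.1% and 12.7%, beside 11.8% and 13.1% of all genes. The groups did not overlap for 39 higher and 50 lower carrier genes, together 34.4% of them, beside 13.8% and 19.2% of all genes, together 32.9%. The median log2 difference was −0.03 over the carrier genes and −0.05 over all genes. Carrier genes were thus called about as often as other genes at the unadjusted threshold, and differed in both directions. Their mean lay above background for 186 of 259 (71.8%), beside 80.3% of all genes, and 184 of the 259 were no more than 2 log2 units above background in total testicular cells, which limits how far a fall could be seen.

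**Figure D1:**
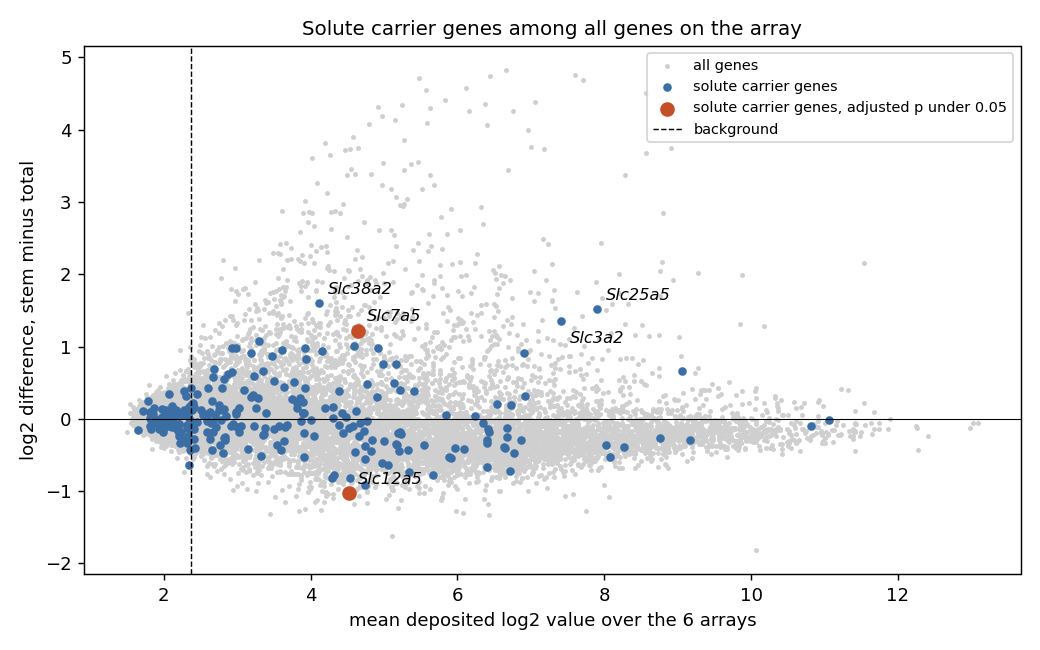
Log2 difference (stem cells minus total testicular cells, vertical axis) against the mean deposited log2 value over the 6 arrays (horizontal axis) for 12393 genes (grey) and the 259 solute carrier genes (blue, with the 2 past the adjusted threshold in orange). The dashed line is the background of 2.37. Differences of the solute carrier genes run from −1.02 to 1.60, while those of all genes run from −1.82 to 4.83.

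The counts differed with how the arrays were scaled, for the carrier genes and for all genes. Under quantile normalization 0 carrier genes rose and 1 fell, beside 1.32% of all genes called. Under centring on array medians 1 rose and 2 fell, beside 2.28%, and under centring on the hybridisation controls 7 rose and 6 fell, beside 5.95%. Centring on medians moved the median difference of all genes to −0.16, and centring on the hybridisation controls moved it to −0.22. Fluidics rounds, meaning arrays taken to have been washed together, were inferred from start times under 15 minutes apart. With this round as a block, 11 carrier genes rose and 0 fell, beside 6.19% of all genes called. Round 2 held only stem cell replicate 3, so that array adds nothing to any difference given here with the round as a block. Those differences rest on stem cell replicates 1 and 2 against the total testicular cell arrays. Without stem cell replicate 1, 2 or 3 the number of carrier genes past the threshold was 6, 21 and 12 of 259, beside 2.79%, 7.59% and 7.17% of all genes called. Without total testicular cell replicate 1, 2 or 3 it was 0 each time by limma, beside 0.226%, 0.379% and 0.29% of all genes called.

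Here and below, carrier genes are grouped by family number alone, and each group is named for the usual cargo of its families. Single genes in a group may carry something else. Amino acid and peptide carriers held 51 genes, of which 1 rose and 0 fell (1.63% and 0.137% of all genes). Their median difference was −0.02, with 7 higher and 4 lower at an unadjusted p under 0.05 (13.7% and 7.84%, beside 11.8% and 13.1% of all genes). Slc7a5 had log2 values of 5.76, 4.81 and 5.21 in stem cell replicates 1, 2 and 3, and of 4.10, 3.94 and 4.07 in total testicular cell replicates 1, 2 and 3. The groups did not overlap, and stem cell replicate 1 was highest. The means were 5.26 ± 0.47 in stem cells and 4.04 ± 0.08 in total testicular cells (SD, n = 3 each). They differed by 1.22 ± 0.24 (SE) on the log2 scale, with a limma adjusted p = 0.0479. Within fluidics round 1 Slc7a5 differed by 1.67 and within round 3 by 0.87, and with the round as a block by 1.33 (limma adjusted p = 0.0241). It still passed without stem cell replicate 1 (0.97, limma adjusted p = 0.0302). Without total testicular cell replicate 1, 2 or 3 it did not pass (1.25, 1.18 and 1.24, limma adjusted p = 0.214, 0.149 and 0.223), nor under quantile normalization (1.20, limma adjusted p = 0.0617) or without an intensity trend (limma adjusted p = 0.0586).

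Slc3a2, the heavy chain that Slc7a5 and other light chains bind, gave 8.89, 7.68 and 7.69 in stem cells and 6.82, 6.80 and 6.58 in total testicular cells. Its groups did not overlap and it was 2.55-fold higher, but it did not pass (log2 difference 1.35 ± 0.30 SE, limma adjusted p = 0.0604). With stem cell replicate 1 left out its difference was 0.95, a rise past the threshold (limma adjusted p = 0.00678). The other light chains that bind Slc3a2 did not pass. Slc7a8, a neutral amino acid exchanger named here after its values were seen, gave 3.77, 2.83 and 3.15 in stem cells and 2.73, 2.76 and 2.29 in total testicular cells. Its groups did not overlap (0.65, limma adjusted p = 0.161). Slc7a6, which exchanges cationic for neutral amino acids, differed by −0.36 (limma adjusted p = 0.324). The related Slc7a7, an exchanger of epithelia and macrophages, had values of 6.01, 5.31 and 4.92 in stem cells and 4.96, 4.83 and 5.27 in total testicular cells, which overlap (0.40, limma adjusted p = 0.406). Slc7a11, the cystine-glutamate exchanger, differed by 0.09 (limma adjusted p = 0.719), at means near background. Of the 13 Slc7 genes, Slc7a5 alone passed in this fit, and their median difference was −0.03. Whether the light chains differ from one another in their response was not tested.

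Slc38a2, a sodium-coupled carrier of small neutral amino acids, had the largest positive difference of the 259, at 3.04-fold. Its values were 5.99, 4.40 and 4.36 in stem cells and 3.32, 3.54 and 3.06 in total testicular cells. Stem cell replicate 1 stood more than 1 log2 unit above replicates 2 and 3, and the gene did not pass (1.60 ± 0.40 SE, limma adjusted p = 0.0767). With stem cell replicate 1 left out it passed, at 1.07 (limma adjusted p = 0.0279), and with the round as a block, at 1.96 (limma adjusted p = 0.0329). Slc1a5, a glutamine and neutral amino acid carrier, lay lower, at 3.19, 3.49 and 3.4 in stem cells and 3.78, 3.54 and 3.84 in total testicular cells (−0.36, limma adjusted p = 0.251).

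On the lower side of this group, Slc1a2, a glutamate carrier best known from astrocytes, gave 3.91, 4.56 and 3.92 in stem cells and 4.93, 4.89 and 5.01 in total testicular cells. The groups did not overlap, and the difference of −0.81 did not pass (limma adjusted p = 0.0844). Slc15a4, which moves histidine and peptides out of endosomes and lysosomes, gave 4.94, 5.84 and 5.03 in stem cells and 6.05, 6.05 and 6.06 in total testicular cells (−0.78, limma adjusted p = 0.113). Both passed without stem cell replicate 2, at −1.03 for Slc1a2 (limma adjusted p = 0.0269) and −1.07 for Slc15a4 (limma adjusted p = 0.0220). Its relative Slc15a3, known from macrophages, was near background (means of 2.48 in stem cells and 2.28 in total testicular cells) and differed by 0.20. Slc6a6, the taurine carrier, differed by −0.30 (limma adjusted p = 0.323), and its probe sets ranged from −0.30 to 0.15.

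**Figure D2:**
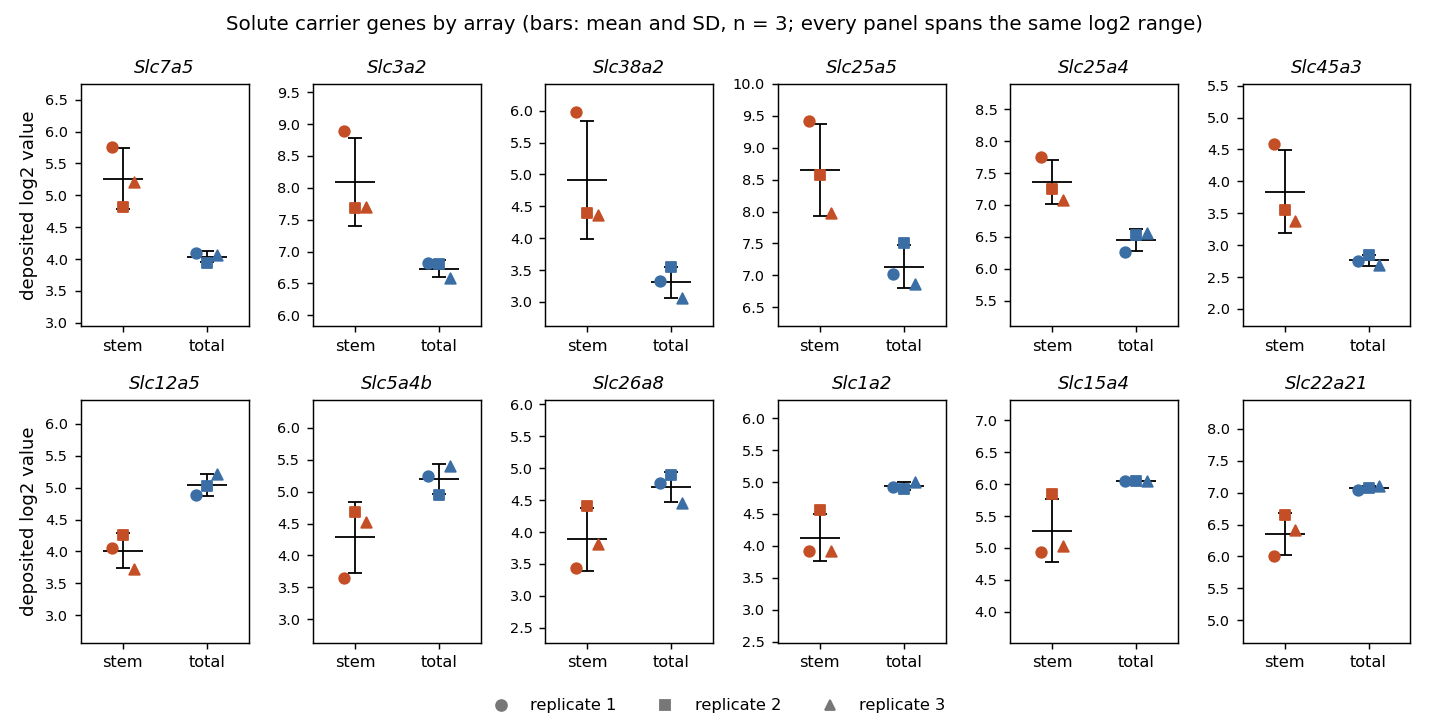
Deposited log2 values of 12 solute carrier genes on the 3 stem cell arrays (orange, left of each panel) and the 3 total testicular cell arrays (blue, right), with symbols for the replicate and bars for the mean and SD (n = 3). The groups do not overlap in any panel, but most of these genes were named by a rule that required this, so it is not a result. Groups did not overlap for 32.9% of all genes. Stem cell replicate 1 is the highest stem cell array in the 6 panels of the top row. Of these 12, Slc7a5 and Slc12a5 passed the adjusted threshold.

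The inorganic ion group held 39 genes, of which 0 rose and 1 fell. By family number it includes Slc4a1ap, Slc9a3r1 and Slc9a3r2, which are not carriers. At an unadjusted p under 0.05, 1 was higher and 8 were lower (2.56% and 20.5%, beside 11.8% and 13.1% of all genes). Slc4a1ap is among the 8 lower. Slc12a5, which extrudes chloride with potassium and is best known from neurons, had log2 values of 4.05, 4.26 and 3.73 in stem cells and 4.88, 5.02 and 5.21 in total testicular cells. No stem cell value reached the total testicular cell values. The means were 4.01 ± 0.27 in stem cells and 5.04 ± 0.17 in total testicular cells (SD, n = 3 each). They differed by −1.02 ± 0.20 (SE) on the log2 scale, with a limma adjusted p = 0.0463. Its other probe set, at a mean of 2.74, differed by 0.02 (limma adjusted p = 0.967), so the fall rests on 1 probe set. Within fluidics round 1 the difference was −1.0 and within round 3 −0.76, and with the round as a block Slc12a5 missed the threshold (−0.89, limma adjusted p = 0.0575). It also missed it without total testicular cell replicate 1, 2 or 3 (−1.10, −1.03 and −0.94, limma adjusted p = 0.203, 0.143 and 0.233).

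Slc12a2, which imports chloride with sodium and potassium, had probe sets that did not move alike. The brightest gave 4.38, 3.69 and 3.71 in stem cells and 3.75, 3.77 and 3.61 in total testicular cells (0.22, limma adjusted p = 0.582). A second gave 2.63, 3.19 and 2.52 in stem cells and 3.88, 3.66 and 3.93 in total testicular cells and fell (−1.04, limma adjusted p = 0.0495). The third, close to background, differed by 0.02. Over all 413 probe sets of the carrier genes 3 were called (0.726%, beside 1.56% of all probe sets annotated to 1 gene), those of Slc7a5 and Slc12a5 and this one of Slc12a2.

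The other named ion carriers did not pass. Slc26a8, an anion carrier of male germ cells that sperm movement depends on, gave 3.44, 4.41 and 3.81 in stem cells and 4.78, 4.90 and 4.45 in total testicular cells (−0.82 ± 0.26 SE, limma adjusted p = 0.119). Its groups were close to touching, and with stem cell replicate 2 left out it passed (−1.08, limma adjusted p = 0.0373). Slc4a8, a sodium-driven chloride-bicarbonate exchanger, differed by −0.78 (limma adjusted p = 0.114), and Slc9a8, a sodium-proton exchanger of the Golgi and the acrosome, by −0.56 (limma adjusted p = 0.160). In both, all 3 stem cell values lay under the 3 others. Slc4a1ap, an adaptor protein and not a carrier, differed by −0.73 (limma adjusted p = 0.119). Slc26a3, a chloride-bicarbonate exchanger of the gut, was below background in both groups. Slc24a3, a potassium-dependent sodium-calcium exchanger, lay on the higher side, at 4.62, 3.86 and 4.76 in stem cells and 3.57, 3.25 and 3.47 in total testicular cells. Its difference of 0.98 did not pass (limma adjusted p = 0.0807), and stem cell replicate 3 was its highest array.

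Of 33 mitochondrial carriers, 0 passed, and the median was −0.09. Among them 6 were higher and 5 lower at an unadjusted p under 0.05 (18.2% and 15.2%, beside 11.8% and 13.1% of all genes). The ADP/ATP carriers, which exchange the ATP made in mitochondria for cytosolic ADP, lay on the higher side. Slc25a5, the form of dividing and many other cells, gave 9.41, 8.57 and 7.98 in stem cells and 7.02, 7.51 and 6.87 in total testicular cells. Its groups did not overlap, and its difference of 1.52 ± 0.33 (SE) missed the threshold (limma adjusted p = 0.0570). All 8 of its probe sets were higher, by 0.86 to 1.57, and those with the suffix x_at, the representative one included, may also bind related transcripts. Slc25a4, the form of heart and muscle, gave 7.74, 7.25 and 7.08 in stem cells and 6.26, 6.53 and 6.57 in total testicular cells (0.91 ± 0.20 SE, limma adjusted p = 0.0606). Of its 4 probe sets, 1 lay below background and differed by −0.14. Without stem cell replicate 1 both passed, at 1.14 for Slc25a5 (limma adjusted p = 0.0420) and 0.71 for Slc25a4 (limma adjusted p = 0.0433).

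Sugar carriers held 26 genes, of which 0 passed, with a median of −0.06. Slc2a3, the high-affinity glucose carrier of neurons and sperm, showed 10.63, 10.86 and 10.78 in stem cells and 10.92, 10.88 and 10.79 in total testicular cells on its brightest probe set, and these groups overlap (−0.11, limma adjusted p = 0.558). A second bright probe set gave −0.09, while the remaining probe sets of Slc2a3 gave −1.0 and −1.3 (limma adjusted p = 0.112 and 0.122). On those, stem cell replicates 1 and 3 were low and replicate 2 lay just under the total testicular cell arrays. Slc2a1, the widespread glucose carrier, lay near background, at 3.04, 2.69 and 3.34 in stem cells and 2.18, 2.42 and 2.40 in total testicular cells (0.69, limma adjusted p = 0.0844), with 0.13 and 0.19 on its other probe sets. Slc2a5, a fructose carrier, differed by −0.27 (limma adjusted p = 0.283), and Slc2a8, an intracellular hexose carrier, by −0.18 (limma adjusted p = 0.478), each without overlap of the groups.

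At the ends of the sugar group, Slc45a3, a sugar carrier first described in prostate, gave 4.59, 3.55 and 3.38 in stem cells and 2.74, 2.85 and 2.69 in total testicular cells (1.08 ± 0.29 SE, limma adjusted p = 0.0902). Slc37a2, a sugar phosphate exchanger found in macrophages, gave 4.96, 3.67 and 3.61 in stem cells and 3.24, 3.08 and 3.08 in total testicular cells (0.95, limma adjusted p = 0.140). In both genes stem cell replicate 1 stood about 1 unit or more above the other stem cell arrays. Slc5a4b, of the sodium-glucose cotransporter family, gave 3.64, 4.68 and 4.53 in stem cells and 5.24, 4.94 and 5.40 in total testicular cells (−0.91 ± 0.28 SE, limma adjusted p = 0.111), with stem cell replicate 1 lowest.

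Carriers of lactate, pyruvate and other carboxylates numbered 10, of which 0 passed and 1 had an unadjusted p under 0.05 (10%, beside 24.9% of all genes). That gene, Slc16a1, a monocarboxylate carrier of many tissues, gave 6.02, 5.32 and 4.75 in stem cells and 4.77, 4.75 and 4.29 in total testicular cells (0.76, limma adjusted p = 0.179). Slc16a7, the high-affinity form present in sperm, gave 8.74, 9.04 and 9.25 in stem cells and 9.29, 9.29 and 9.34 in total testicular cells (−0.30, limma adjusted p = 0.255). Its groups did not overlap, but replicate 3 lay within 0.1 of the total testicular cell arrays. Slc16a3, the lactate exporter of glycolytic cells, was near background (0.22, limma adjusted p = 0.268). Slc16a1 passed without stem cell replicate 3 (1.07, limma adjusted p = 0.0448).

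**Figure D3:**
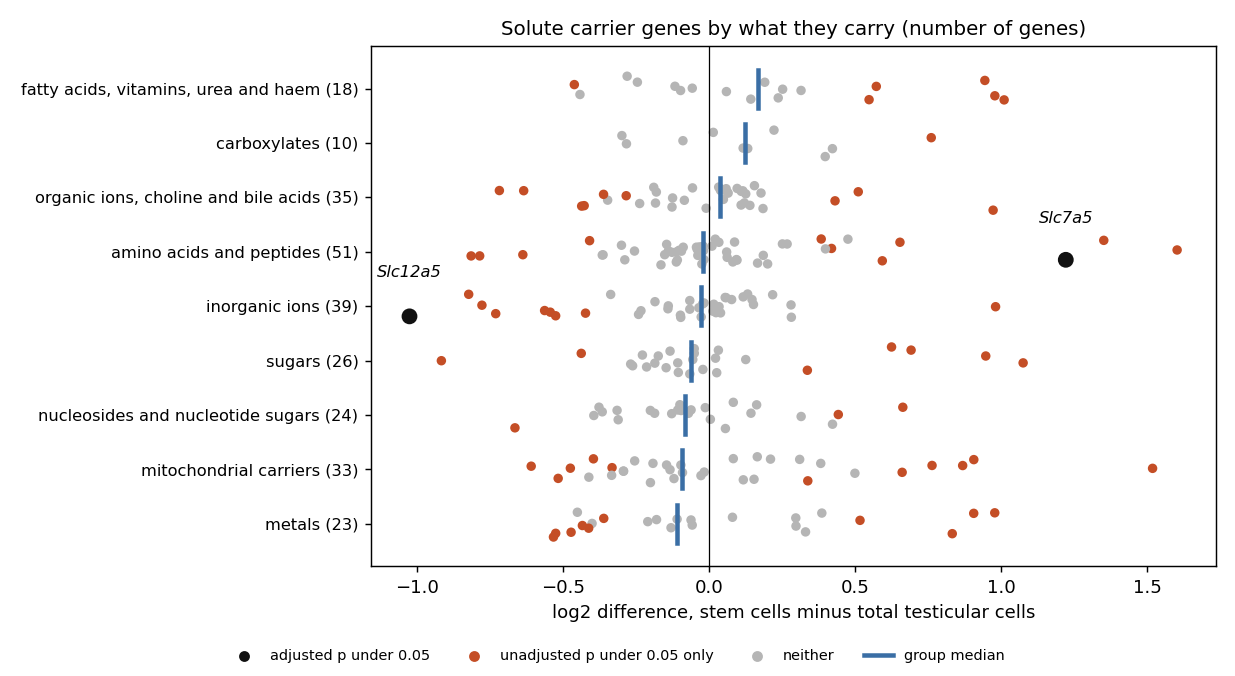
Log2 differences (stem cells minus total testicular cells, horizontal axis) of the 259 solute carrier genes in groups set by family number. Groups are named for the usual cargo of their families, and single genes may carry something else. The number of genes is in brackets, and blue bars give the group medians. Black points mark an adjusted p under 0.05 and orange points an unadjusted p under 0.05 only. Group medians lie between −0.11 (metals) and 0.17 (fatty acids, vitamins, urea and haem), and each group has genes on both sides of 0.

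In the 4 remaining groups 0 genes passed by limma. Of 35 carriers of organic ions, choline and bile acids, 3 were higher and 6 lower at an unadjusted p under 0.05. These are 8.57% and 17.1%, beside 11.8% and 13.1% of all genes. Slc44a1, a choline carrier, gave 3.91, 2.94 and 3.57 in stem cells and 2.36, 2.51 and 2.63 in total testicular cells (0.97 ± 0.24 SE, limma adjusted p = 0.0752, and 0.32 on its other probe set). Slc22a21, a carnitine carrier of mouse testis, gave 6.0, 6.65 and 6.41 in stem cells and 7.04, 7.08 and 7.10 in total testicular cells (−0.72 ± 0.19 SE, limma adjusted p = 0.0845). Neither gene's groups overlapped. The carnitine carrier of most tissues, Slc22a5, differed by 0.19 with overlapping groups (limma adjusted p = 0.557).

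Of 24 carriers of nucleosides and nucleotide sugars, 2 were higher and 1 lower at an unadjusted p under 0.05 (8.33% and 4.17%, beside 11.8% and 13.1% of all genes). The lower was Slc35a3, which brings UDP-N-acetylglucosamine into the Golgi, at 5.59, 6.47 and 6.13 in stem cells and 6.75, 6.73 and 6.70 in total testicular cells (−0.66, limma adjusted p = 0.132). Slc35a1, the CMP-sialic acid carrier, differed by 0.66 (limma adjusted p = 0.142). Slc29a1, a nucleoside carrier of the cell surface, differed by 0.32 (limma adjusted p = 0.262), and Slc29a3, its lysosomal relative, by −0.19 (limma adjusted p = 0.545). All 23 metal carriers had a mean above background, and 10 of them (43.5%, beside 24.9% of all genes) had an unadjusted p under 0.05. Of these 4 were higher and 6 lower (17.4% and 26.1%, beside 11.8% and 13.1% of all genes). Brighter genes had such a p more often, at 34.2% of all genes with a mean over 4 and 33.3% of carrier genes above background. Slc30a1, the zinc exporter of the cell surface, gave 5.27, 5.76 and 5.85 in stem cells and 6.03, 5.95 and 6.48 in total testicular cells (−0.52, limma adjusted p = 0.194). Slc39a14, a zinc and manganese importer, differed by −0.06.

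The group of fatty acid, vitamin, urea and haem carriers had 18 genes and a median of 0.17. Of these, 5 were higher and 1 lower at an unadjusted p under 0.05 (27.8% and 5.56%, beside 11.8% and 13.1% of all genes). Slc48a1, which moves haem out of lysosomes, gave 5.93, 4.73 and 4.64 in stem cells and 4.07, 4.53 and 3.67 in total testicular cells (1.01 ± 0.36 SE, limma adjusted p = 0.143). Slc46a3, a lysosomal carrier, gave 4.0, 3.33 and 2.94 in stem cells and 2.48, 2.59 and 2.25 in total testicular cells (0.98 ± 0.26 SE, limma adjusted p = 0.0832). In both, stem cell replicate 1 was highest and replicate 3 lowest of the stem cell arrays. Slc27a2, a fatty acid carrier and acyl-CoA synthetase, was near background (0.19, limma adjusted p = 0.508).

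Stem cell replicate 1 stood apart among the carrier genes with a low p, but not among all 259. Over all 259 it was the highest stem cell array in 97 and the lowest in 90, and the median deviations from the total testicular cell mean were −0.05, −0.06 and 0.01 in replicates 1, 2 and 3. Of the 34 that were higher at an unadjusted p under 0.05, stem cell replicate 1 had the highest stem cell value in 30, and over all genes in that class it did in 1263 of 1458. Replicate 2 was the lowest stem cell array in 20 of these 34 and replicate 3 in 14. Of the 33 that were lower, it was replicate 1 that had the lowest in 21, against 1275 of 1625 over all genes. The macrophage markers lay a median of 5.52, 3.97 and 3.53 above the total testicular cell mean in stem cell replicates 1, 2 and 3, and the Leydig cell markers 2.91, 1.86 and 0.82. Slc38a2 lay 2.67, 1.09 and 1.05 above that mean, Slc25a5 2.28, 1.43 and 0.85, and Slc3a2 2.15, 0.95 and 0.96. Slc7a5 lay 1.72, 0.77 and 1.18 above it and Slc12a5 −0.99, −0.78 and −1.31 from it. The part of the marker levels, and of the brighter hybridisation controls of replicate 1, in these differences was not tested.

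**Figure D4:**
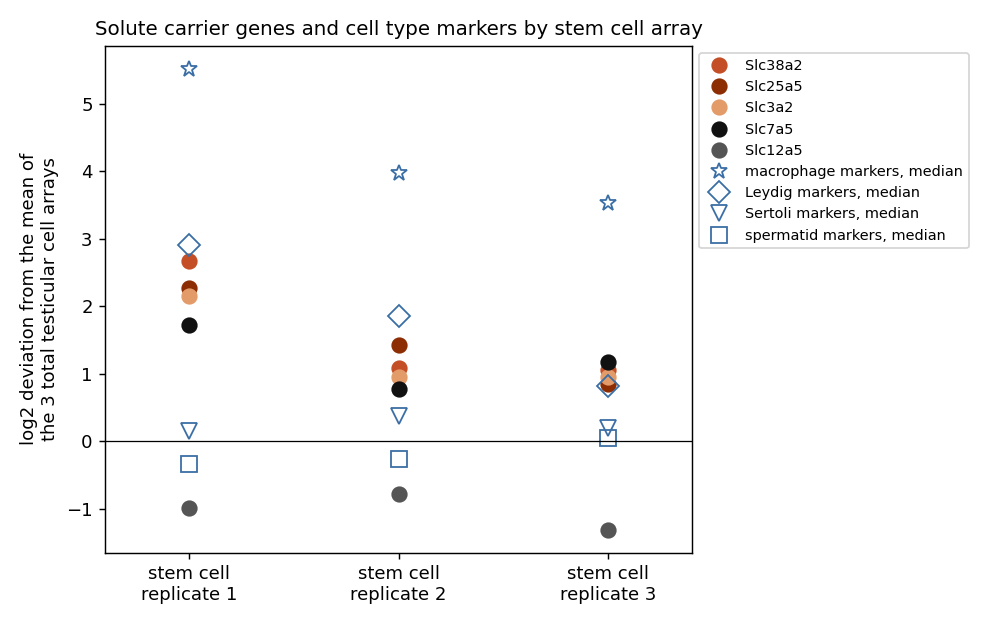
Log2 deviation of each stem cell array from the total testicular cell mean (vertical axis) for 5 solute carrier genes (filled circles) and for the medians of 4 cell type marker lists (open symbols). Replicate 1 has the largest deviation for the macrophage and Leydig cell markers and for Slc38a2, Slc25a5, Slc3a2 and Slc7a5, while Slc12a5 lies lowest on replicate 3, at −1.31.

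Transport genes without an Slc number were read from 7 lists with 75 measured genes, of which 1 rose and 0 fell (1.33%, beside 1.77% of all genes called). Over the 7 lists, 13 were higher and 8 lower at an unadjusted p under 0.05 (17.3% and 10.7%, beside 11.8% and 13.1% of all genes). Abca1, the ATP-driven exporter of cholesterol, rose 7.62-fold. Its values were 9.09, 7.45 and 6.83 in stem cells and 5.0, 5.32 and 4.26 in total testicular cells (2.93 ± 0.51 SE, limma adjusted p = 0.0368). Its log2 difference ranged from 2.28 to 3.41 when 1 array was left out, lowest without stem cell replicate 1 and highest without stem cell replicate 3, and its 3 probe sets gave 1.77 to 2.93. It did not pass without total testicular cell replicate 1, 2 or 3 (limma adjusted p = 0.180, 0.103 and 0.187). It was the 1 gene past the threshold among 32 ABC transporters, 5 of which were higher and 4 lower at an unadjusted p under 0.05. By limma 0 passed of 11 organic anion carriers of the Slco family (0 higher and 3 lower at an unadjusted p under 0.05), 3 sodium-potassium pump subunits (2 higher, 0 lower), 3 partner glycoproteins of monocarboxylate carriers (2 and 0), 5 mitochondrial carriers with other symbols (1 and 1), 8 aquaporins (2 and 0) and 13 carbonic anhydrases (1 and 0).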

How the data were processed

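Expression was measured in mouse testis cells on 6 arrays, grouped by title (3 of stem cells, 3 of total testicular cells). The values are log2 probe set summaries as the authors deposited them. MAS5 and RMA stand in the submitters' processing notes with no version or role, so the background correction and normalization are not given in the sources used here. The file headers give run start times and modules, and the fluidics rounds were inferred from the times (run starts under 15 minutes apart counted as 1 round). Round 1 covers modules 1, 2 and 3, round 2 module 4, and round 3 modules 1 and 2. Whether stem cell replicate 3, on module 4, was washed apart from the other arrays is therefore not settled. Rounds 1 and 3 hold both groups, and round 2 holds only stem cell replicate 3, which a round block therefore sets aside. Whether replicates are separate preparations is not stated, so p-values measure only the spread between these samples, which may be technical. The number of arrays limits precision.

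Of 22690 probe sets, 64 controls were left out. The 22626 tested included 20380 with 1 gene in the platform annotation, 691 with several genes and 1555 with no gene. Gene identifiers of 20351 were found in the RefSeq table (GRCm38.p6), which changed 0 symbols. Groups were compared by two-sided tests in limma (version 3.58.1, under R 4.3.3), using lmFit and trended eBayes. Residual degrees of freedom were 4 and prior ones 5.21, p-values were adjusted over all tested probe sets by Benjamini-Hochberg, and the threshold was 0.05. The procedure was tested on simulated data. Promoters are from RefSeq.

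The members, lists, named genes and tests were chosen with earlier results of these data known. Named carrier genes were those past the threshold, the 8 largest positive and 8 largest negative differences among the others above background with non-overlapping groups, and 31 measured genes of a fixed list of 35. Transport genes of the other lists were named where they passed. Replicate numbers did not pair the samples: deviations from the group means correlated at −0.01, 0.01 and 0.30 between same-numbered arrays. Alternatives were median centring, quantile normalization, removal of dim probe sets, replicate and round blocks, other variance models, array weights, other probe set choices, stricter thresholds and leaving out each array. Centring on 18 hybridisation controls was added after seeing the data. Pseudocounts did not apply to log values.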

Additional observations from a re-analysis of the deposited data

How the results depend on the processing

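The number of carrier genes past the threshold was 2 and ranged from 0 to 21 when 1 array was left out. That of the other transport genes was 1 and ranged from 0 to 9. The median difference over the carrier genes, −0.03, ranged from −0.068 to 0.021 when 1 array was left out. The number of carrier genes, and of other transport genes, was 15 and 7 with the replicate block, 11 and 5 with the fluidics round as a block, 10 and 7 with array weights, 13 and 6 with hybridisation control centring, 0 and 0 without an intensity trend or at an adjusted p under 0.01, and 1 and 0 with the probe set of smallest difference or with the mean of a gene's probe sets. Quantile normalization gave 1 carrier gene. Of all genes 219 were called, against 737 with the replicate block, 767 with the round as a block and 82 without a trend. The median over the carrier genes became −0.14 with median centring and −0.19 with hybridisation control centring, beside −0.16 and −0.22 over all genes. The cause of these changes was not tested.

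For single genes the sign turned in a few settings, and in none of them did the gene pass. With the probe set of smallest difference, Slc12a5 gave 0.016, Slc25a4 −0.14 and Slc6a6 0.00061. With the mean of a gene's probe sets, Slc26a3 gave 0.039, Slc12a2 −0.27 and Slc39a14 0.072. Slc7a11 gave −0.023 with median centring and −0.077 with hybridisation control centring. Leaving out 1 array turned Slc12a2 to −0.0072 (without stem cell replicate 1; its range was −0.0072 to 0.34) and Slc39a14 to 0.021, 0.017 and 0.018 (without stem cell replicate 2, total testicular cell replicate 1 and total testicular cell replicate 3; its range was −0.22 to 0.021). Over the 17 alternatives other than stricter thresholds, the difference of Slc7a5 ranged from 0.97 to 1.45 and passed in 11. That of Slc12a5 ranged from −1.19 to 0.02 and passed in 10 of these 17. At an adjusted p under 0.01 neither gene passed. Low signal limits what could be seen, since 184 of 259 carrier genes were no more than 2 log2 units above background in total testicular cells.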

Other observations

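Probe sets annotated to more than 1 gene were not counted among the carrier genes. There were 3 of them. That of Slc28a2b and Slc28a2, concentrative nucleoside carriers, gave 2.58, 2.00 and 2.28 in stem cells and 1.99, 1.95 and 1.82 in total testicular cells (0.36, limma adjusted p = 0.183). Those of Slc22a30 with Slc22a29 and of Slc9a7 with an unnamed clone differed by −0.13 and −0.16, at or under background.

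Of the 259 carrier genes, 97 had more than 1 probe set, and in 39 of these the probe sets differed in sign. Among carrier genes with a mean over 4 log2 units, 11 were higher and 21 lower at an unadjusted p under 0.05 (of 85), and among all genes that bright 789 were higher and 1285 lower (of 6057).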
